A study of Mus musculus with 7 samples.

Results

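The 10 genes described here are 4 Wnt ligands (Wnt4, Wnt5a, Wnt6 and Wnt9a), the secreted enhancer Rspo1, its receptor Lgr5, and 4 genes that respond to the pathway or restrain it (Axin2, Lef1, Znrf3 and Nkd1). They were taken by gene symbol, 10 of the 31053 genes in the deposited matrices, and each symbol matched 1 row. Single-cell RNA was measured in 7 libraries of pooled gonads from untreated wild-type C57BL/6J mice, 1 library at each of 7 ages, namely E11.5 and E12.5 (embryonic days), then every second day up to E18.5, followed by postnatal days 1 (P1) and 5 (P5). The E11.5 library is labelled gonad and the other 6 ovary, and no sex is given for E11.5. Of 52542 deposited cells, 50823 had at least 200 genes and were kept, with 492138529 unique molecular identifiers (UMIs, counted molecules) in all and a median of 6349 to 11060 UMIs per cell across libraries. Dissociation in trypsin took 20 min at E11.5 and E12.5, 40 min at E14.5 and E16.5, 60 min at E18.5 and 80 min at P1 and P5, so age and dissociation time cannot be told apart.

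Wnt ligands bind Frizzled receptors with an Lrp5 or Lrp6 coreceptor. In the canonical branch this stabilises beta-catenin, which enters the nucleus with Tcf and Lef factors and switches on target genes. R-spondins bind Lgr4, Lgr5 or Lgr6 and draw off the ubiquitin ligases Znrf3 and Rnf43, which otherwise remove Frizzled from the cell surface. Axin2 is a component of the beta-catenin destruction complex and Nkd1 binds Dishevelled, and both are feedback inhibitors induced by the pathway. In the fetal ovary, Rspo1 and Wnt4 are known for keeping supporting cells on the ovarian path.

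Cells were placed in classes by marker UMIs. Germ cells needed 3 UMIs of Dazl and Ddx4 together, epithelium 2 of Upk3b, pregranulosa (PG) cells 2 of Kitl, stroma 3 of Col1a1 and Col1a2 together, and endothelium 2 of Cdh5. A cell past more than 1 gate was placed in none. These gates held 4327 germ, 818 epithelial, 11401 PG, 12845 stromal and 225 endothelial cells, 58.3% of the cells in all. A further 7.84% passed several gates, 28.9% passed none, and 4.98% passed none and had at least 20% of their UMIs from haemoglobin genes. The last group is called haemoglobin-rich below and served as a measure of free RNA, since such cells are not a known source of Wnt ligands. A level is the gene's UMIs divided by all UMIs of the class, in counts per 1000000 (CPM), with its exact 95% Poisson interval in parentheses. It compares 1 gene between cells and not 1 gene with another. Each age is 1 library, so intervals cover counting error only and no test of an age difference was possible. Classes of cells were tested against each other over the 7 libraries.

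The gates were checked against other markers of the same 5 cell types. All 6 endothelial markers were highest in the endothelial class in every library, and 6 of 6 stromal markers were highest in stroma from E12.5 to P5. For epithelium it was 4 or 5 of 5. PG markers were highest in PG cells for 6 of 6 from E12.5 to E16.5, 5 at E18.5 and 3 at E11.5, P1 and P5. Summed over the 6 PG markers, the epithelial class of the P5 library held 1494 CPM, more than the 1191 of its PG cells. Gng13, 1 of the 6, is cited by the study as a gene of the ovarian surface. It was far higher in that epithelium (given with Lgr5 below) than in the PG cells, which had 99.99 CPM. Foxl2 went the other way, at 22.4 CPM in epithelium and 380 in PG cells. PG cells held the higher sum in every other library, with 1709 CPM against 1292 in epithelium for P1. The part of this overlap in the P5 ratios of PG cells to epithelium was not tested. Foxl2, the transcription factor that marks PG cells, stood at only 2.88 CPM in the E11.5 PG class against 61.8 at E12.5 and 380 at P5, so cells of this gate at E11.5 are Kitl-positive cells with little Foxl2. Stroma also carried Foxl2, at 0.532 CPM at E12.5 and 164 at P5. The 4 rete or mesonephric tubule markers (Pax8, Pax2, Lhx1 and Wfdc2) together stood at 106.7 CPM in PG cells at E11.5. Epithelium had 35.9 and stroma 23.5 there, and PG cells 51.6 at E12.5 and 5.80 at P5. The 4 mural (vessel wall) markers were Rgs5, Notch3, Acta2 and Mcam. Together they stood at 510.2 CPM in stroma at E11.5, 240.4 at E12.5 and 1222 at P5. With every cell that had a Pax8 UMI left out, 7 of 118 ratios of the comparisons below moved by more than their interval. Of the ratios that had been called, 0 turned sides. These comparisons do not cover E11.5. Neither the part of tubule cells at E11.5 nor that of mural cells in the class levels was tested. The germ class had 9 cells at E11.5, where Mael, a germ cell gene, had no UMI (3 UMIs would be 13.4 CPM), and only 2 of 5 germ markers were highest in it at E16.5. The epithelial gate kept 14 cells at E16.5 and 39 at E18.5.

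The E16.5 library stood apart. It shared 0 to 3 cell barcodes with each of the other 6 libraries, which shared 20 to 131 with one another, and its median of 3539 genes per cell was above the 2291.5 to 3227 of the others. The labels give the same chemistry for all 7 libraries, and whether that holds for E16.5 could not be checked. What this does to levels at E16.5 was not tested. Counts over 3 ages that include E16.5 are also given with another library in its place.

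**Figure D1:**
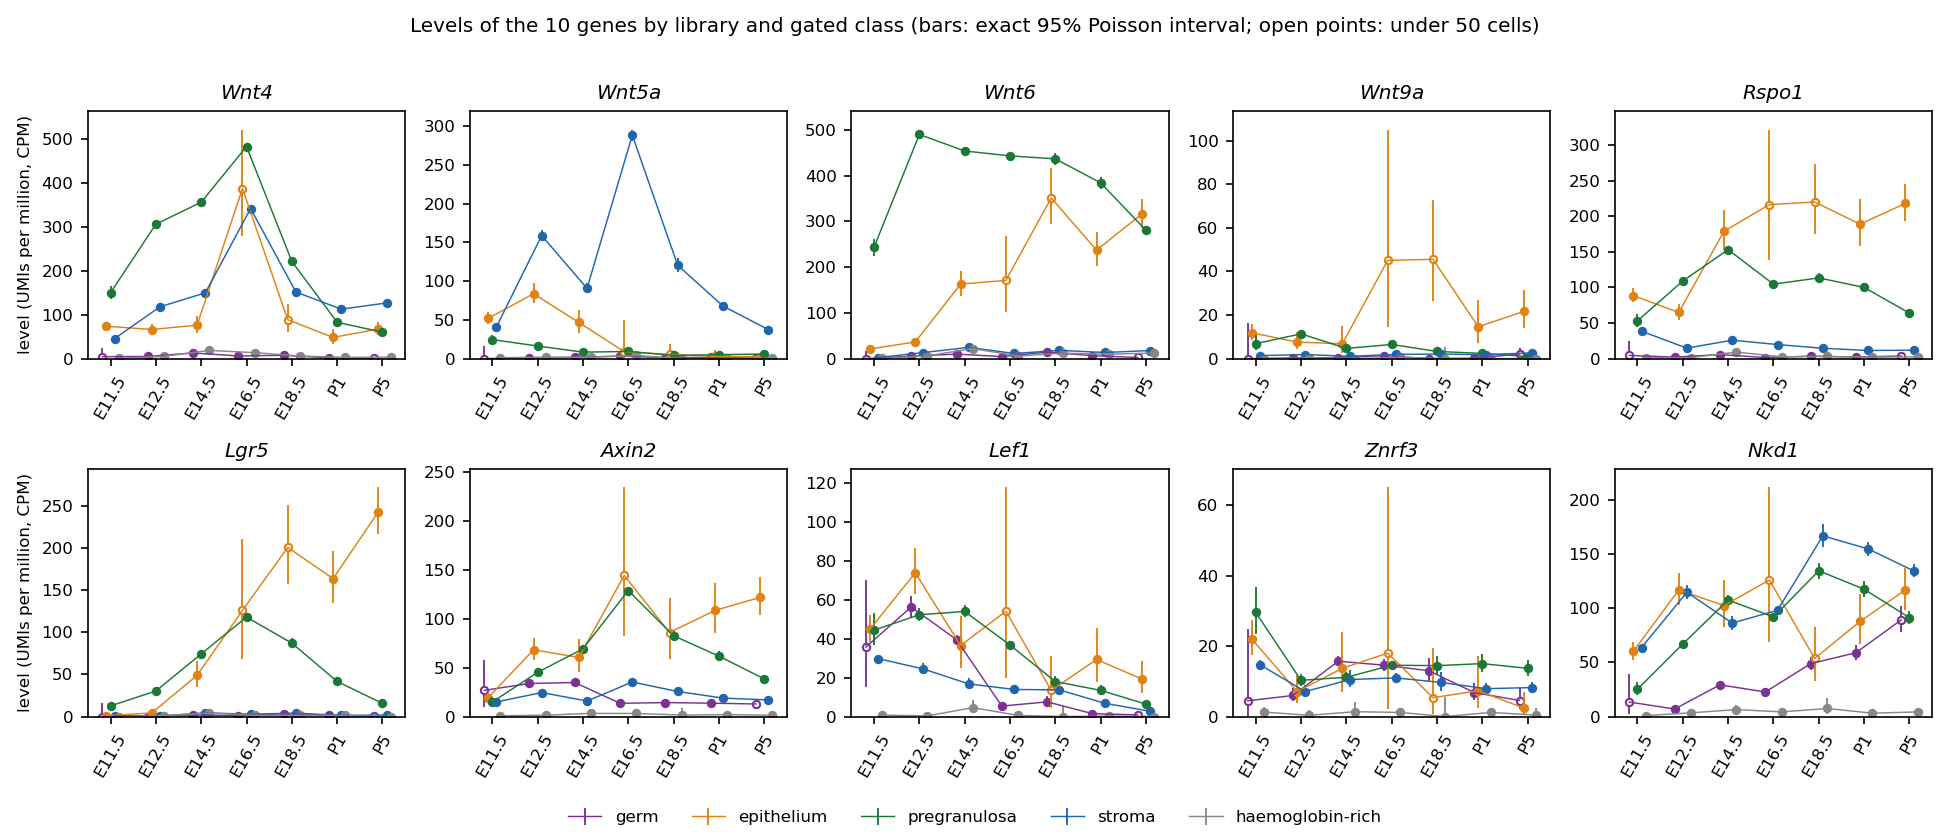
Level of each of the 10 genes (y axis, CPM) in the 7 libraries (x axis) for 4 classes and for haemoglobin-rich cells, with 1 panel per gene. Bars are exact 95% Poisson intervals and open points rest on fewer than 50 cells. Wnt6 stays at 243 CPM or more in PG cells (green), Wnt5a peaks in stroma (blue) at 288, and Lgr5 reaches 244 in P5 epithelium (orange).

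For regulatory sequence, RefSeq windows on GRCm38.p6 from 250 bases before to 50 bases after a start were matched by symbol for 7 of the 10 genes, with 10 windows in all. None was matched for Wnt5a, Lgr5 or Znrf3. The windows were searched on both strands for the Tcf and Lef core motif in its forms CTTTGAA as well as CTTTGAT, and likewise as CTTTGTA and finally as CTTTGTT. Such a match occurred in 16.9% of the 32851 windows of 300 bases over all genes and in 1 of the 10 windows of these genes. It lay in the most downstream of 4 Lef1 windows, 147 bases before an internal start, within an intron of Lef1. It is shown because Lef1 is itself one of the factors that bind this motif. Capitals mark the match, which is the reverse complement of CTTTGTA, and the strand is plus.
Lef1, chr3:131156136-131156165: caacctcagaaTACAAAGtaggattgcatt
The windows of Wnt4, Wnt6, Wnt9a, Rspo1, Axin2 and Nkd1 held no such letters. Their G and C content ran from 58.3% (Nkd1) to 84.3% (Wnt4), with 6 CpG pairs in the Nkd1 window and 58 in that of Wnt9a. The Nkd1 window (88527383 to 88527682) lay inside the annotated gene, which starts at 88521354, so its values are not those of the first start. A match is a description of letters and was not tested for binding.

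Wnt4 (ENSMUSG00000036856, chromosome 4, 137277489 to 137299726, plus strand) was higher in PG cells than in stroma up to E18.5 and lower there after birth. In PG cells it stood at 149.9 (136 to 165) CPM, 306 (298 to 315), 356 (348 to 364), 483 (476 to 490), 221 (212 to 231), 82.7 (76.8 to 88.9) and 60.3 (55.7 to 65.1) from E11.5 to P5 in order of age. Stromal levels in the same order were 45.6, 118, 149.7, 342, 151.6, 113 and 127. PG cells were above stroma in each library from E11.5 to E18.5 and below it at P1 and P5, and no pair of intervals overlapped. The ratio of PG cells to stroma went from 3.29 (2.95 to 3.67) at E11.5 through 2.59 (2.44 to 2.76) at E12.5 to 0.734 (0.672 to 0.803) at P1 and 0.476 (0.434 to 0.520) at P5. Within PG cells the level at P5 was 0.197 (0.181 to 0.214) times that at E12.5, whereas within stroma the ratio was 1.07 (1.00 to 1.15). Of all Wnt4 UMIs in a library, 58.4% lay in PG cells and 15.4% in stroma at E12.5, and 18.6% and 56.5% at P5. These shares also depend on class size. Over all genes, PG cells held 16442514 and stroma 11279236 of 56627287 UMIs at E12.5. At P5 they held 10520788 and 15213145 of 47463350.

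All of PG cells, stroma and epithelium had their highest Wnt4 level in the E16.5 library. Without it, PG cells were highest at E14.5 and stroma at E18.5. The epithelial level of 387 CPM at E16.5 rested on 43 UMIs in 14 cells, against 48.3 to 88.5 CPM at the other ages. With the cells past several gates kept, the Upk3b gate at E16.5 held 569 cells, of which 458 also passed the Kitl gate, and stood at 189.0 CPM. Foxl2 and the mural markers were also higher in the stromal gate at P5 than at E12.5 (above), and their part in the crossing of Wnt4 was not tested. Haemoglobin-rich cells had 0.361 to 18.7 CPM of Wnt4, and germ cells 1.65 to 12.8, with overlapping intervals in 6 of 7 libraries and germ cells lower in the other.

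Wnt6 (ENSMUSG00000033227, chromosome 1, 74771892 to 74785322, plus strand), a ligand of epithelia and kidney tubules, had its highest level in PG cells at early ages. Among the classes it was high in PG cells and epithelium later. PG levels were 243 (225 to 262) CPM, 490.1 (479 to 501), 454 (445 to 463), 443 (437 to 450.0), 437 (424 to 450.1), 384 (371 to 397) and 281 (271 to 291) from E11.5 to P5 in order of age. From E12.5 to P1 they stayed within 384 to 490.1. Epithelial levels were 21.0, 36.4, 163, 171, 351, 237 and 316 CPM at the same ages. The ratio of PG cells to epithelium was accordingly 13.4 (10.7 to 17.1) at E12.5, 2.79 (2.36 to 3.31) at E14.5 and 0.887 (0.798 to 0.988) at P5. Stroma held 2.34 to 24.7 CPM and haemoglobin-rich cells 0.361 to 21.9. Stroma lay above those cells with intervals apart at E11.5, E12.5 and E16.5, and the intervals overlapped in the other 4 libraries. PG cells were 15.9 to 104 times above stroma in the 7 libraries. Cells that passed no gate held 2.01% (E16.5) to 35.2% (P5) of all Wnt6 UMIs of a library. At P5 PG cells held 43.2% and epithelium 5.78%. Shares depend on class size, and cells past no gate held 10028828 of 47463350 UMIs of all genes at P5. Which cells carried this Wnt6 was not tested.

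Wnt5a (ENSMUSG00000021994, chromosome 14, 28504750 to 28527448, plus strand), which signals mainly through the non-canonical branch and the receptors Ror1 and Ror2, was highest in stroma from E12.5 on. Stromal levels were 40.8 (38.7 to 43.1) CPM, 159 (152 to 166), 90.7 (84.1 to 97.7), 288 (281 to 296), 120.5 (112 to 130), 67.9 (63.6 to 72.4) and 37.5 (34.5 to 40.7) from E11.5 to P5 in order of age. The E12.5 level was the highest outside E16.5. At E11.5 PG cells held 24.5 CPM and epithelium 51.9, so the gene was spread over the somatic classes, and from E12.5 on PG cells held 0.0321 to 0.157 times the stromal level. Epithelium had 83.8 (71.9 to 97.0) CPM at E12.5 and 2.40 (0.496 to 7.02) at P5, a ratio of 0.0287 (0.00586 to 0.0852) that rests on 3 UMIs at P5. The 6 stromal markers together stood at 660 CPM in the epithelial gate at E12.5 and 812 at P5, with Nr2f2 at 310.0 and 41.7 and Dcn at 103.6 and 526. Their part in the Wnt5a difference was not tested.

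Wnt9a (ENSMUSG00000000126, chromosome 11, 59306928 to 59333552, plus strand) was the ligand with the fewest UMIs. PG levels ran from 11.4 (9.80 to 13.1) CPM at E12.5 to 0.9505 (0.456 to 1.75) at P5, where 10 UMIs were counted, with a P5 to E12.5 ratio of 0.0836 (0.0394 to 0.157). In epithelium it stood at 7.57 CPM at E12.5 and 21.6 at P5, a ratio of 2.86 (1.48 to 5.67) in the other direction. PG cells were above stroma by 6.11 (3.88 to 10.1) at E12.5 and below it at P5, at 0.362 (0.161 to 0.736). With cells past several gates kept, the P5 ratio stood on the other side, at 0.49 on the log2 scale. Epithelium had the highest level of the 5 classes in 6 of 7 libraries, the exception being E12.5.

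**Figure D2:**
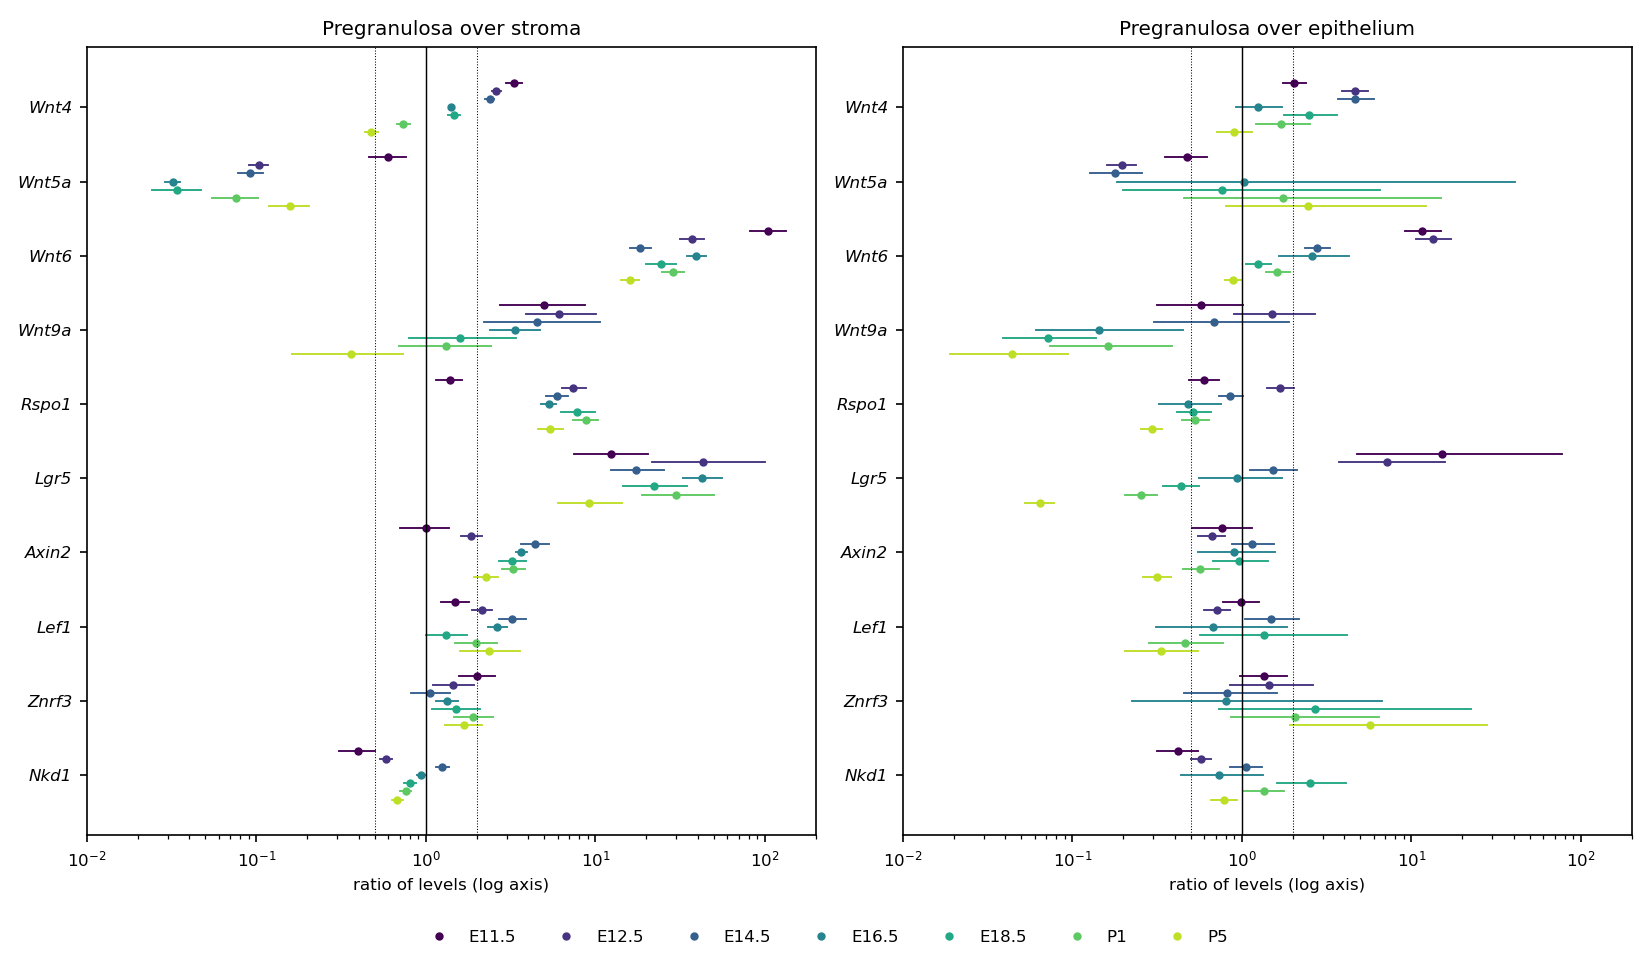
Ratio of the level in PG cells to that in stroma (left) and in epithelium (right) on a log axis, for the 10 genes (rows) in 7 libraries (colours), with exact 95% intervals as lines and dotted lines at 2-fold. Wnt4 over stroma moves from 3.29 at E11.5 to 0.476 at P5, and Lgr5 over epithelium from 15.2 to 0.064. The 15.2 rests on 3 epithelial UMIs.

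Rspo1 (ENSMUSG00000028871, chromosome 4, 124986430 to 125009099, plus strand), the R-spondin known for its role in ovarian development, was found in epithelium and PG cells. PG levels were 53.0 (44.8 to 62.3) CPM, 109 (104 to 114), 153 (148 to 158), 104.5 (101 to 108), 113 (107 to 120.1), 99.99 (93.5 to 107) and 63.9 (59.1 to 68.9) from E11.5 to P5 in order of age. Epithelial levels were 88.4, 64.8, 179, 216, 220, 189 and 218 CPM. PG cells exceeded epithelium only at E12.5, by 1.68 (1.41 to 2.02), and were at 0.293 (0.254 to 0.339) times its level at P5. Stroma held 38.5 CPM at E11.5 and 11.4 to 25.8 later, and PG cells were 5.29 to 8.75 times above stroma from E12.5 to P5.

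Lgr5 (ENSMUSG00000020140, chromosome 10, 115450311 to 115587780, minus strand), an R-spondin receptor that marks epithelial stem cells in several organs, went from near background to a high level in epithelium. Epithelial levels were 0.829 (0.171 to 2.42) CPM, 4.26 (1.95 to 8.09), 49.0 (35.4 to 66.0), 126 (68.9 to 212), 201 (158 to 252), 164 (135 to 197) and 244 (217 to 272) from E11.5 to P5 in order of age. The E11.5 and E12.5 values rest on 3 and 9 UMIs and lay near the 0 to 4.10 CPM of haemoglobin-rich cells, and every later library had a higher value than all earlier ones except that P1 was below E18.5. The intervals of E18.5 and P1 overlapped, as did those of E16.5 with both and those of E18.5 and P5. PG cells had 12.6 CPM, 30.3, 74.5, 118, 87.2, 41.6 and 15.6 from E11.5 to P5 in order of age. The ratio of PG cells to epithelium was 15.2 (4.80 to 77.3) at E11.5, 1.52 (1.12 to 2.11) at E14.5, 0.434 (0.342 to 0.557) at E18.5 and 0.064 (0.0526 to 0.0777) at P5. PG cells crossed below epithelium between E14.5 and E18.5. At E16.5 the ratio was 0.937 (0.558 to 1.72) with 14 epithelial cells.

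With cells past several gates kept, Lgr5 in the Upk3b gate was 8.12 CPM at E12.5, 192 (183 to 200.5) at E16.5 and 246 (230.0 to 263) at P5. Gng13, a PG list marker that the study used for cells of the epithelial pathway, moved with Lgr5 in epithelium, from 9.94 CPM at E12.5 to 908 at P5, while Foxl2 was 0.473 and 22.4 CPM there. Krt19, a keratin of the ovarian surface, went from 185 to 1400 CPM. Their part in the Lgr5 difference was not tested. Lgr5 in stroma, 0.709 to 4.28 CPM, overlapped with haemoglobin-rich cells in 6 of 7 libraries and lay above them at E11.5. At P5 46.7% of all Lgr5 UMIs lay in cells past several gates, 24.3% in epithelium and 13.1% in PG cells.

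**Figure D3:**
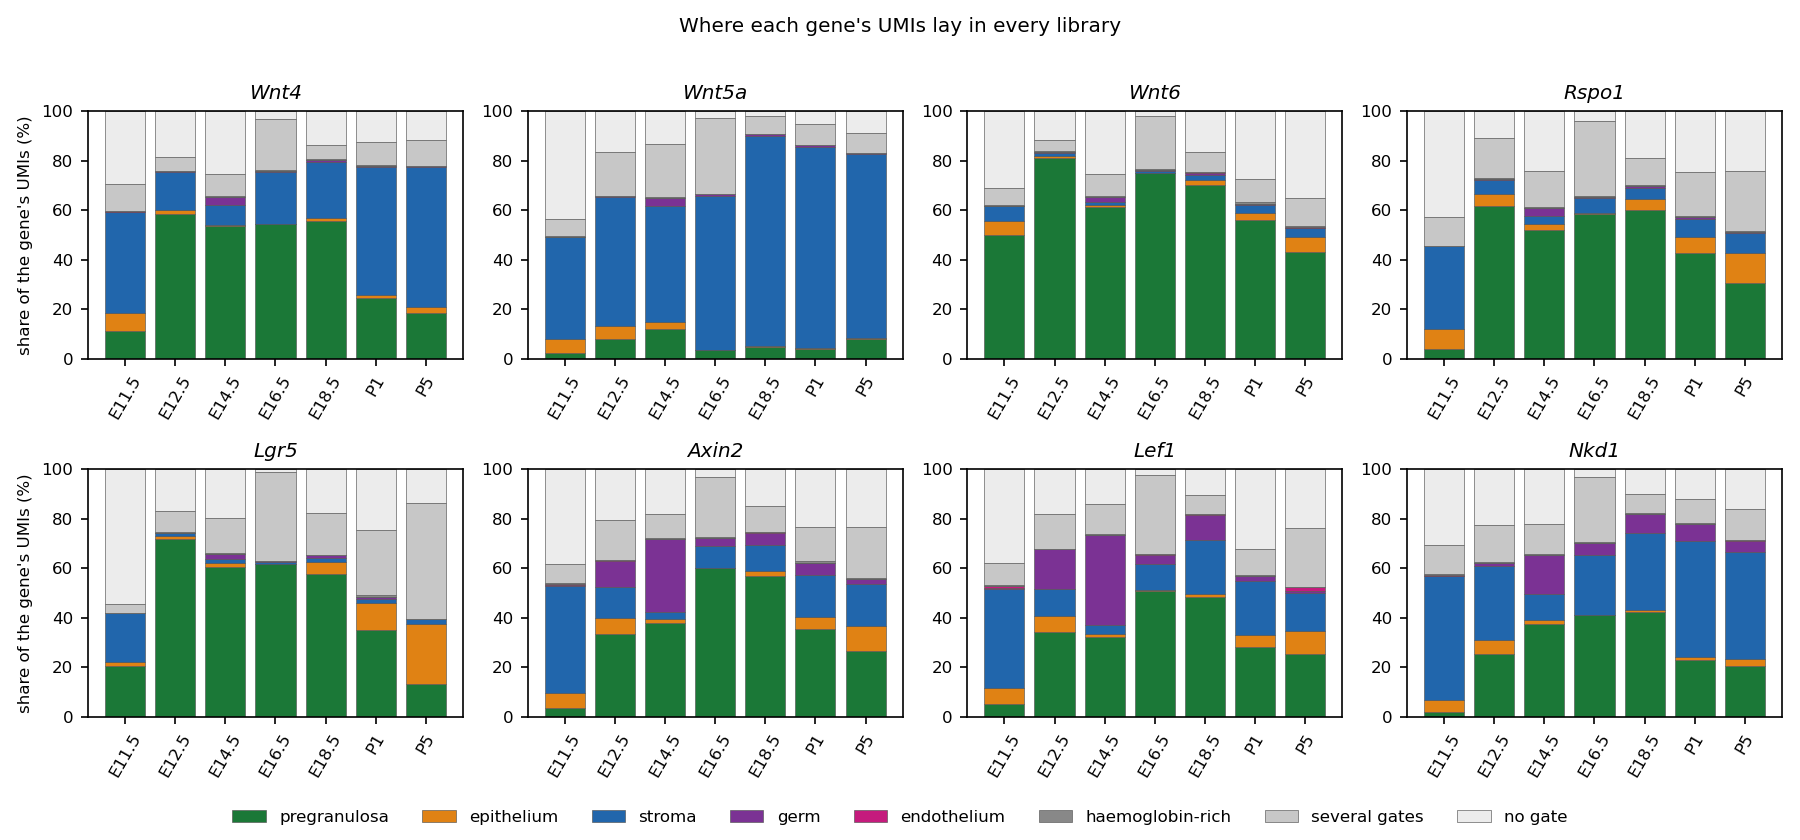
Share of all UMIs of a gene (y axis, percent) that lay in each class in each of the 7 libraries (x axis), for 8 of the 10 genes, stacked to 100%. The stromal share of Wnt4 goes from 15.4% at E12.5 to 56.5% at P5, and germ cells hold 36.5% of Lef1 UMIs at E14.5. Shares also depend on class size. Over all genes, stroma held 11279236 of 56627287 UMIs at E12.5 and 15213145 of 47463350 at P5. Germ cells held 33106751 of 87563864 at E14.5.

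Axin2 (ENSMUSG00000000142, chromosome 11, 108920349 to 108950783, plus strand), a widely used readout of canonical signalling, was found in all 4 larger classes. PG levels were 14.8 (10.6 to 20.1) CPM, 45.1 (41.9 to 48.5), 69.1 (65.7 to 72.7), 129 (125 to 132), 82.5 (76.9 to 88.4), 61.7 (56.6 to 67.1) and 38.4 (34.8 to 42.3) from E11.5 to P5 in order of age. The highest value outside E16.5 was that of E18.5. Stroma held 14.9 to 35.2 CPM, and PG cells were at 0.995 (0.705 to 1.37) times its level at E11.5 and 2.26 to 4.37 times above it from E14.5 to P5. In epithelium Axin2 was 68.1 (57.5 to 80.2) CPM at E12.5 and 122 (103 to 143) at P5, and PG cells at P5 were at 0.315 (0.261 to 0.383) times that level.

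Lef1 (ENSMUSG00000027985, chromosome 3, 131110471 to 131224356, plus strand), a nuclear partner of beta-catenin and a target of the pathway, was lower at P5 than at E12.5 in all 3 somatic classes compared. In PG cells it was 44.3 CPM, 52.2 (48.8 to 55.9), 53.9, 36.7, 17.9, 13.4 and 6.37 (4.93 to 8.09) from E11.5 to P5 in order of age. The P5 to E12.5 ratio was 0.122 (0.0936 to 0.156) in PG cells, 0.111 (0.0776 to 0.154) in stroma and 0.260 (0.162 to 0.402) in epithelium. The level in PG cells exceeded that in stroma past 2-fold at E12.5, E14.5, E16.5 and P5, by 2.14 to 3.22 times, and by less at the other ages.

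Znrf3 (ENSMUSG00000041961, chromosome 11, 5276324 to 5444847, minus strand), the ubiquitin ligase that R-spondins draw off, was low in every class, with 29.5 (23.5 to 36.7) CPM in PG cells at E11.5 and 10.3 to 15.0 in the 6 later libraries. Its ratio of PG cells to stroma was 1.06 to 2.01. The ratio to epithelium of 5.70 (1.91 to 27.9) at P5 rested on 3 epithelial UMIs.

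Nkd1 (ENSMUSG00000031661, chromosome 8, 88521354 to 88594884, plus strand) was found in PG cells, stroma and epithelium. PG cells and stroma were less than 2-fold apart from E12.5 on. PG levels were 25.2 CPM, 67.0, 108, 91.9, 135, 118 and 91.3 from E11.5 to P5 in order of age, and stromal levels 63.7, 115, 86.3, 98.2, 167, 155 and 135. Epithelial levels were 60.2, 116.9, 102.5, 126.1, 53.6, 87.8 and 116.9 CPM, with 14 cells at E16.5 and 39 at E18.5. Epithelium had the highest level of the 5 classes in 2 libraries. Stroma was above PG cells in 6 of 7 libraries, but by 2-fold only at E11.5, where the ratio was 0.396 (0.307 to 0.502). The annotation places Gm45496 over Nkd1, and Gm42449 over Lef1, on the same strand, so reads in those overlaps may not have been assigned to either gene. No other member had a same-strand overlap.

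Germ cells differed from somatic cells in which of these genes lay above the CPM of haemoglobin-rich cells. For Wnt5a, Wnt9a, Rspo1 and Lgr5 the germ interval overlapped that of haemoglobin-rich cells in all 7 libraries, and for Wnt4 and Wnt6 no library had germ cells above it. Axin2 lay above that background in 7 of 7 libraries, Nkd1 in 6, Znrf3 in 5 and Lef1 in 4. The share of all genes above it is not given. Depth differed, with medians of 58051 UMIs per germ cell and 8723 per haemoglobin-rich cell at P5. Equal CPM then stands for more UMIs per germ cell, so an overlap does not show that germ cells lack a gene. Axin2 in germ cells was 33.7 (29.6 to 38.3) CPM at E12.5, 34.7 (32.8 to 36.8) at E14.5 and 12.8 to 14.2 from E16.5 to P5. Lef1 was 56.2 (50.9 to 62.0) at E12.5, 39.5 (37.3 to 41.7) at E14.5 and 5.35 (4.38 to 6.47) at E16.5, with 0.826 (0.100 to 2.98) at P5. So both were lower from E16.5 on, also at E18.5, P1 and P5 without the E16.5 library. The E14.5 germ class held 36.5% of all Lef1 and 29.4% of all Axin2 UMIs of its library. A share depends on the size of a class, and this class held 33106751 of the 87563864 UMIs of all genes there. Nkd1 in germ cells was 13.4 (2.75 to 39.0) CPM, 6.94 (5.15 to 9.15), 29.2 (27.4 to 31.1) and 22.7 (20.6 to 24.9) from E11.5 to E16.5 in order of age. It was then 48.8 at E18.5, 58.9 at P1 and 89.2 (77.7 to 102) at P5, where 47 cells were gated. Endothelial levels of the 10 genes came from 13 to 58 cells per library and reached at most 30.9 CPM.

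Taken gene by gene over all features, a comparison was called when the ratio was at least 2 either way and its interval left out 1, for genes with 20 UMIs over both sides. Of the 10 genes, 6 were higher in PG cells than in stroma at E12.5, 6 at E16.5 and 5 at P5, and 1, 1 and 3 were lower. Over all genes compared, 16.8%, 19.9% and 15.5% were higher and 12.7%, 14.7% and 13.5% lower. Wnt6, Rspo1, Lgr5 and Lef1 were called higher and Wnt5a lower in all 3 libraries. The share of all genes called the same way in all 3 is not given. The median log2 ratio of the 10 genes was 1.24, 1.57 and 0.96, against -0.01, 0.18 and 0.10 over all genes. With E14.5 or E18.5 in place of E16.5, the 17 higher calls over the 3 libraries became 18 or 15 and the 5 lower calls stayed at 5.

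Against epithelium, 3 of the 10 genes were higher in PG cells at E12.5 (Wnt4, Wnt6 and Lgr5), 1 at E16.5 (Wnt6) and 1 at P5 (Znrf3), over backgrounds of 12.1%, 2.81% and 9.73%. Lower in PG cells were 1 at E12.5 (Wnt5a), 2 at E16.5 (Wnt9a and Rspo1) and 5 at P5 (Wnt9a, Rspo1, Lgr5, Axin2 and Lef1), over 8.58%, 4.23% and 8.43%. The median log2 ratio of the 10 genes was 0.56 at E12.5 and -0.98 at P5, and that of all genes 0.04 and 0.12. At E16.5 only 14 epithelial cells were compared. In the P5 library the summed PG markers, Gng13 among them, were higher in epithelium than in PG cells (above). Their part in these calls was not tested. Replacing E16.5 by E14.5 or E18.5 gave 6 or 6 higher and 7 or 8 lower calls over the 3 libraries, in place of 5 and 8.

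The differences between classes were also tested over the 7 libraries, which asks for a mean class difference across ages and not for one held at each age. UMIs were summed per class and library and fitted with edgeR's quasi-likelihood test with library as a block, with p-values adjusted over all genes tested. The genes and comparisons were chosen with earlier results of these data known, and the fit was added after the ratios had been seen. The study used Wnt4, Wnt6 and Kitl together as PG markers on these same cells. It also listed Rspo1 with these genes for bipotential cells, and used Lgr5 for PG cells of the epithelial pathway. A higher level of Wnt4, Wnt6, Rspo1 or Lgr5 in the Kitl gate is therefore not independent evidence. Against stroma, 6 of the 10 genes were higher in PG cells (Wnt6, Rspo1, Lgr5, Axin2, Lef1 and Znrf3) and 2 lower (Wnt5a and Nkd1), where 26.4% and 29.1% of all genes were. The fitted log2 difference was 4.81 for Wnt6 and 4.29 for Lgr5, both with an adjusted p of 1.14e-05 and higher in 7 of 7 libraries, and 2.29 for Rspo1 (adjusted p = 0.000264, 7 of 7). It was -3.57 for Wnt5a (adjusted p = 0.000388, lower in 7 of 7) and 1.24 for Axin2 (adjusted p = 0.00148, higher in 6 of 7). Lef1 at 0.92, Znrf3 at 0.47 and Nkd1 at -0.58 passed with less than a 2-fold difference. Wnt4, higher in 5 libraries and lower in 2, did not pass (0.43, adjusted p = 0.313), and neither did Wnt9a (1.14, adjusted p = 0.0723). The same counts of 6 and 2 were found without the E16.5 library. Scaled by library size alone, Wnt9a passed (adjusted p = 0.0426) and Nkd1 did not (adjusted p = 0.0517).

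Against epithelium the same test gave 1 gene higher in PG cells, Wnt4 at 1.05 (adjusted p = 0.021, 6 of 7 libraries), and 1 lower, Wnt9a at -2.04 (adjusted p = 0.038, 6 of 7), over 7.997% and 8.63% of all genes. The Wnt4 ratio was 4.62 (3.91 to 5.51) at E12.5 and 1.25 (0.926 to 1.72) at E16.5, with 14 epithelial cells. At P5 it was 0.896 (0.712 to 1.14), so the difference was not seen there. Without E16.5, Wnt9a no longer passed (adjusted p = 0.0865). Lgr5, which was higher in PG cells in 3 libraries and lower in 4, had a log2 difference of -0.52 (adjusted p = 0.698). These p-values rest on the spread of a class difference between ages, each of them 1 pooled library.

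From E12.5 to P5, PG cells had 0 of the 10 genes called higher and 4 lower (Wnt4, Wnt5a, Wnt9a and Lef1), where 11.2% and 11.9% of all genes were. Stroma had 1 higher (Lgr5, from 8 to 26 UMIs, near the level of haemoglobin-rich cells) and 2 lower (Wnt5a and Lef1), over 12.3% and 9.45%. Epithelium had 4 higher (Wnt6, Wnt9a, Rspo1 and Lgr5) and 2 lower (Wnt5a and Lef1) of 9 compared, over 12.7% and 12.51%. Ratios in epithelium were 57.2 (29.7 to 126) for Lgr5, 8.68 (6.79 to 11.2) for Wnt6 and 3.36 (2.73 to 4.16) for Rspo1. In PG cells the same 3 genes were at 0.514 (0.428 to 0.614), 0.573 (0.549 to 0.597) and 0.586 (0.535 to 0.640). PG cells with at least 2 Gng13 UMIs numbered 525 at E12.5 and 143 at P5, and those with none 591 and 825. Lgr5 went from 36.5 to 93.0 CPM in the former and from 25.2 to 2.61 in the latter. Wnt6 went from 521 to 399.9 and from 449 to 251.8, and Rspo1 from 138 to 134.7 and from 75.9 to 50.6. The part of this make-up in the PG ratios was not tested. E12.5 and P5 are 2 libraries, and the difference between them has no replicate check.

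PG cells were divided by Gng13, a G protein subunit that the study used for cortical PG cells of the epithelial pathway. Cells with at least 2 Gng13 UMIs numbered 2175 at E14.5, 1319 at E16.5 and 286 at P1, and cells with none 667, 1576 and 634. Gng13-positive cells had less Foxl2, by ratios of 0.339, 0.356 and 0.491, and somewhat more UMIs per cell, with medians of 6622 against 5546 at E14.5, 13702 against 10973 at E16.5 and 8689.5 against 7632.5 at P1. Pax8, a marker of rete and mesonephric tubule cells, was lower in them, at 5.13 against 22.7 CPM at E14.5, 4.50 against 23.5 at E16.5 and 0.762 against 11.6 at P1. With every cell that had a Pax8 UMI left out, the log2 ratio of Lgr5 stood at 1.83, 4.05 and 3.82. Lgr5 was higher in Gng13-positive cells at all 3 ages, at 92.2 against 23.7 CPM at E14.5, 231 against 13.2 at E16.5 and 115 against 7.92 at P1. The ratios were 3.89 (3.16 to 4.84) and 17.6 (15.3 to 20.3) at the first pair of ages, and the interval of the ratio at P1 was 10.5 to 20.7. At E11.5 and E12.5 it was 0.921 (0.18 to 2.97) and 1.45 (1.19 to 1.76). The study used both Gng13 and Lgr5 on these same cells to describe the epithelial pathway, so their joint pattern here is not independent evidence. It cited earlier work for both genes. It also used in situ hybridization of Gng13, and reporter immunofluorescence, lineage tracing and ablation of Lgr5-expressing cells.

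At E14.5 and E16.5, Lgr5 was the 1 gene of the 10 called higher, and at P1 Lef1 was called with it, making 2 of 9. None was called lower at any of the 3 ages. Over all genes 3.21%, 5.12% and 5.05% were called higher and 3.66%, 7.31% and 5.61% lower. Lef1 in Gng13-positive over Gng13-negative cells was 1.54 (1.29 to 1.83) at E14.5, 1.97 (1.75 to 2.22) at E16.5 and 2.66 (1.79 to 3.98) at P1. Wnt4 differed little, at 0.876 (0.827 to 0.927), 0.960 (0.932 to 0.990) and 1.30 (1.10 to 1.52), and Rspo1 was 1.72, 1.45 and 1.47 times higher. Axin2 was 0.887 (0.779 to 1.01) at E14.5 and 1.02 (0.957 to 1.08) at E16.5. Its ratio was 1.65 (1.39 to 1.96) at E18.5, and after birth 1.81 (1.51 to 2.18) for P1 and 3.17 (2.52 to 3.98) for P5. At P5, where 143 positive and 825 negative cells were compared, Lgr5 reached 35.6 (22.2 to 60.2), Lef1 5.61 (3.24 to 9.75) and Rspo1 2.66 (2.23 to 3.17). Over the 7 libraries, edgeR with library as a block called 4 of the 10 higher in Gng13-positive cells, over 8.39% of all genes. They were Lgr5 at 2.95 on the log2 scale (adjusted p = 0.00182, higher in 6 of 7), Lef1 at 1.01 (adjusted p = 0.00272), Rspo1 at 0.79 (adjusted p = 0.000672) and Wnt6 at 0.57 (adjusted p = 0.00228), the last 3 in 7 of 7. It called 0 lower, over 8.87% of all genes, as did DESeq2, and in this fit 0 were lower at an unadjusted p under 0.05. Znrf3 came nearest, at -0.38 and lower in 6 of 7 libraries (edgeR, unadjusted p = 0.0568). Scaled by library size alone, its unadjusted p in edgeR was 0.0428 (adjusted p = 0.139). By the ratio rule Znrf3 was called lower at E12.5, at 0.469 (0.324 to 0.672). It was also called lower at E11.5, at 0.237 (0.0282 to 0.888), on 2 UMIs in 19 Gng13-positive cells. Wnt5a was called lower at E11.5 as well, with 0 UMIs in those cells. Without the E16.5 library the counts were also 4 and 0. In the fit without the block 1 was called higher.

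**Figure D4:**
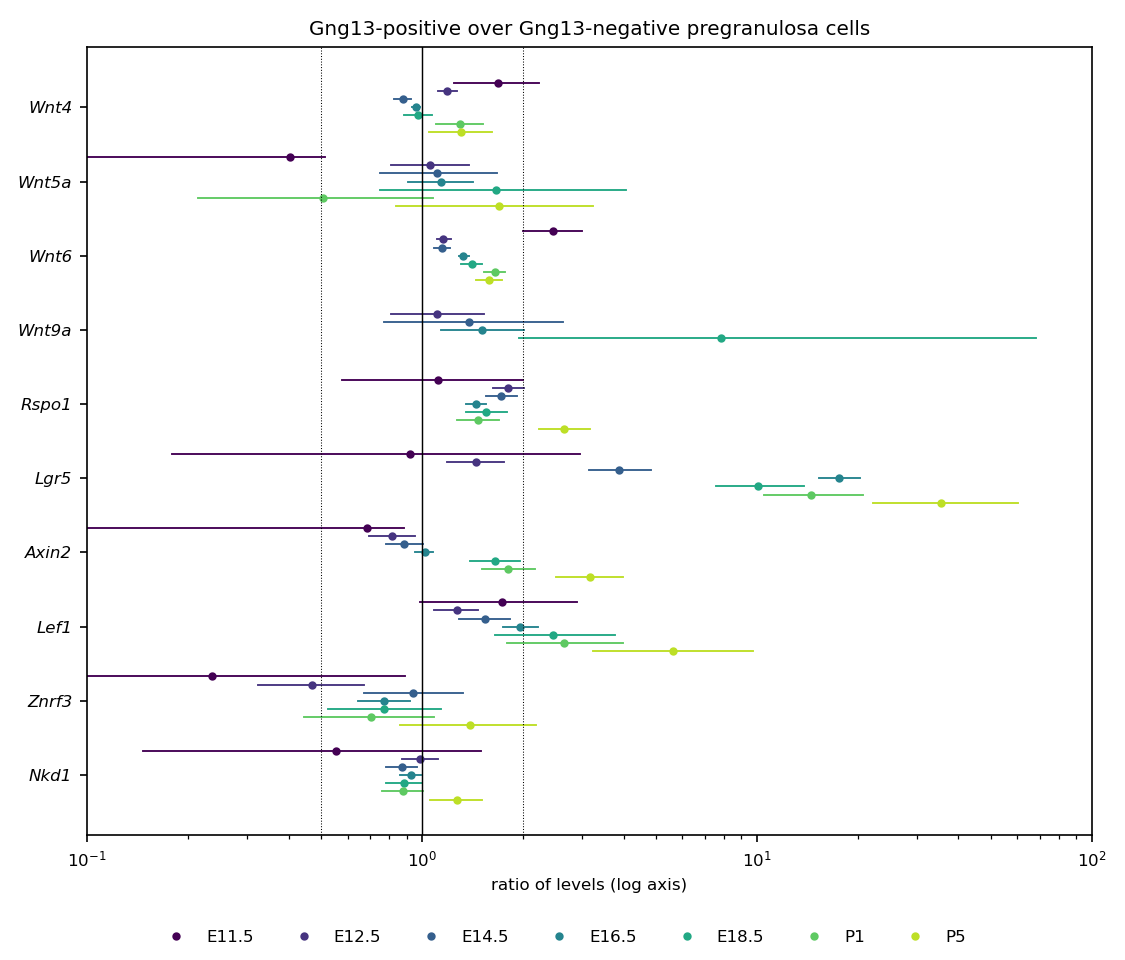
Ratio of the level in Gng13-positive to that in Gng13-negative PG cells on a log axis, for the 10 genes (rows) in 7 libraries (colours), with exact 95% intervals as lines, dotted lines at 2-fold, and no point where fewer than 20 UMIs were counted. Lgr5 lies at 0.921 and 1.45 in the first 2 libraries, 3.89 at E14.5 and 10.1 or more in the 4 later libraries, while Wnt4 stays between 0.876 and 1.69.

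A list of 75 genes of the pathway, which includes these 10, was followed in the same comparisons. Against stroma and apart from the 10, 48, 47 and 41 of them could be compared at E12.5, E16.5 and P5. In PG cells 11, 8 and 8 were higher, over 16.8%, 19.9% and 15.5% of all genes, and 16, 17 and 14 lower, over 12.7%, 14.7% and 13.5%. The medians over the whole list were -0.02, 0.00 and -0.12 on the log2 scale. Of the genes outside the 10, 14 were called the same way in all 3 libraries, 5 higher and 9 lower. The share of all genes called the same way in all 3 libraries of a comparison is not given, so this count is a description. With E18.5 in place of E16.5 all 14 were called and Lgr4 with them, and with E14.5 in its place 11 were, without Notum, Porcn and Sfrp4. Higher were the receptors Fzd5 and Fzd6, the secreted inhibitor Sfrp4, and the targets Rnf43 and Sp5. Rnf43, the partner of Znrf3 in clearing Frizzled, was 10.9 (5.36 to 25.8), 18.2 (13.3 to 25.6) and 15.6 (7.88 to 35.1) times higher in PG cells. Sp5, a transcription factor induced by beta-catenin, was 10.5, 20.3 and 8.47 times higher, with lower bounds of 7.81, 15.6 and 4.77.

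Lower in PG cells than in stroma were Rspo3, the acyltransferase Porcn, the receptors Fzd2, Fzd7, Ror1 and Ror2, and the inhibitors Sfrp1, Sfrp2 and Notum. Ror2 and Ror1, which take Wnt5a, were at 0.168 and 0.0467 times the stromal level at E12.5 and at 0.0359 and 0.162 at P5. Rspo3, a second R-spondin, had 55.3, 16.4 and 36.6 CPM in stroma against 1.09, 0.229 and 0.665 in PG cells. Sfrp1, a secreted Wnt-binding protein, reached 493, 657 and 566 CPM in stroma and 25.4, 6.34 and 16.2 in PG cells.

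**Figure D5:**
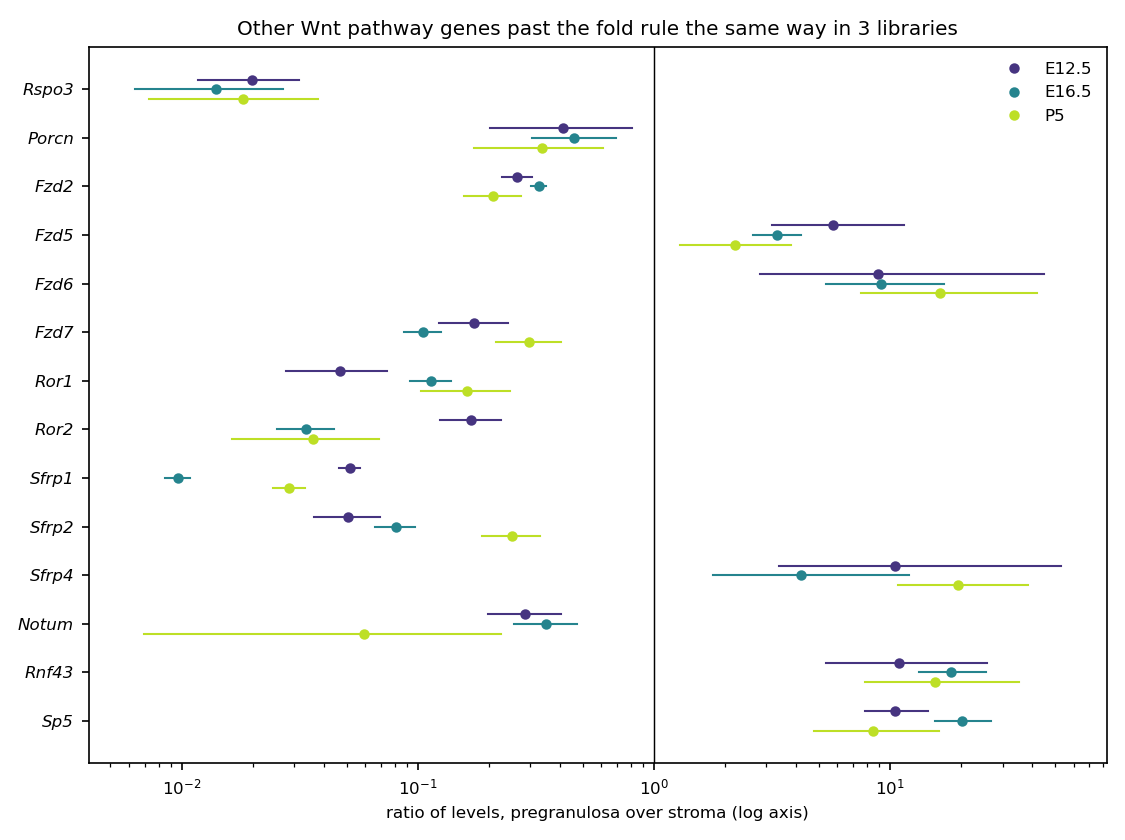
Ratio of the level in PG cells to that in stroma (log axis) for the 14 further pathway genes called the same way at E12.5, E16.5 and P5 (colours), with exact 95% intervals as lines. Rnf43 and Sp5 lie at 8.47 or above, and Rspo3 and Sfrp1 at 0.0516 or below.

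In the comparison with epithelium, 46, 41 and 36 of the list genes other than the 10 could be compared. Higher in PG cells were 6, 0 and 5, over 12.1%, 2.81% and 9.73% of all genes, and lower 14, 4 and 6, over 8.58%, 4.23% and 8.43%. Fzd4, a Frizzled receptor, was the 1 gene of the list other than the members called the same way in all 3 libraries, at 0.201 (0.150 to 0.271), 0.107 (0.0535 to 0.250) and 0.194 (0.106 to 0.363). Its E16.5 ratio rested on 8 UMIs in 14 epithelial cells, and the ratio was 0.423 (0.234 to 0.841) at E14.5 and 0.325 (0.156 to 0.784) at E18.5. From E12.5 to P5, 9 of 47 were higher and 14 lower in PG cells, where 11.2% and 11.9% of all genes were. In stroma it was 3 and 11 of 41, over 12.3% and 9.45%, and in epithelium 2 and 10 of 32, over 12.7% and 12.51%. Between Gng13-positive and Gng13-negative PG cells, 39, 41 and 34 were compared at E14.5, E16.5 and P1. Of these 1, 2 and 2 were higher, over 3.21%, 5.12% and 5.05% of all genes, and 6, 7 and 4 lower, over 3.66%, 7.31% and 5.61%. Dkk3, of the Dickkopf family, was lower in the Gng13-positive cells at all 3 ages, at 0.133 (0.0748 to 0.231), 0.173 (0.127 to 0.231) and 0.207 (0.100 to 0.385). At E18.5 it was 0.367 (0.233 to 0.570).

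The genes with the most similar pattern to each member were sought among 10685 genes that reached 20 CPM, over the 25 class and library points with at least 50 cells, by Pearson's r of log2 (CPM + 5). These points share libraries and depth, so r is a description. Wnt6 was nearest to Sh2d4a (0.978), A230005M16Rik (0.975) and Amhr2 (0.970), the last being the receptor for anti-Müllerian hormone. For Wnt5a the nearest were Ptn (0.937), the hedgehog effector Gli2 (0.936) and the growth factor receptor Pdgfra (0.935), and for Wnt4 they were Sox5 (0.947), Colec12 (0.941) and Pcdh18 (0.927). Rspo1 was nearest to Smim1 (0.942), the keratin Krt8 (0.933) and Lypd6 (0.932), and Lgr5 to Gm17660 (0.961), Epn3 (0.943) and Fam129a (0.939). Wnt9a lay closest to Krt7 (0.902), Lama5 (0.896) and Fah (0.886), and Axin2 to Dnase2a (0.931), Adck5 (0.905) and Egfl6 (0.889). Lef1, Znrf3 and Nkd1 had looser neighbours, with Mycn (0.820), Aasdhppt (0.796) and Tgfb3 (0.872) in first place. Among the members themselves, r was 0.89 for Lgr5 with Wnt6, 0.83 for Lgr5 with Axin2, 0.84 for Rspo1 with Wnt6 and -0.33 for Lgr5 with Wnt5a.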

How the data were processed

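The authors made the deposited UMI counts per gene and cell with Cell Ranger 3.1.0 and its mm10 reference (refdata-cellranger-mm10, version 3.0), from 10x Genomics v2 libraries per the labels, which could not be checked for the E16.5 library. The counts had not been normalized. As in the study, a cell needed 200 genes to stay, which removed 1719. The Kitl threshold was given and those of the other gates were chosen here. The members, gene lists and comparisons were chosen with earlier results of these data known. Named genes are the members, list genes called the same way in 3 libraries, the 3 genes nearest to each member, and gate or check markers. No doublet caller was run. UMIs were summed per class, with exact Poisson intervals (95%) for levels and the exact conditional interval for a ratio of 2 levels. A count of 0 stood at 3 counts in a ratio. Each age is 1 library, so ages were not tested. Classes were tested over the 7 libraries on summed counts with edgeR 4.0.16 (quasi-likelihood, genes kept by filterByExpr, TMM scaling, library as block, Benjamini-Hochberg adjustment, threshold 0.05), a fit added after the ratios had been seen, with DESeq2 1.42.0 as an alternative. The procedure was tested on simulated data. Columns of no mapped sample did not occur. Alternatives covered gates, cell filters, thinning to 2000 UMIs per cell and scaling. Positions come from GENCODE vM21 on GRCm38, the same assembly as mm10. Python 3.11.15, numpy 2.4.6, scipy 1.17.1, pandas 2.3.3 and matplotlib 3.10.9 were used.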

Additional observations from a re-analysis of the deposited data

Results flagged for a closer look

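Each pair of values here lies past 2-fold in opposite directions, with both intervals leaving out 1. The differences were not tested, since each age is 1 library. Wnt4 in PG cells over stroma was 3.29 at E11.5 and 0.476 at P5. Wnt9a in PG cells over stroma was 6.11 at E12.5 and 0.362 at P5. Lgr5 in PG cells over epithelium was 15.2 at E11.5, on 3 epithelial UMIs, and 0.064 at P5. The PG class at E11.5 had little Foxl2 (above). Nkd1 in PG cells over epithelium was 2.51 at E18.5 and 0.419 at E11.5, with 39 epithelial cells at E18.5. For Wnt9a from E12.5 to P5, the ratio was 0.0836 in PG cells and 2.86 in epithelium.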

How the results depend on the processing

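Over 3 ages or classes a comparison gave 17 higher and 5 lower calls for PG cells against stroma, 5 and 8 against epithelium, 5 and 8 from E12.5 to P5, and 4 and 0 for Gng13-positive against Gng13-negative PG cells. With 2 UMIs more in every gate, the calls lower than in stroma became 3. With cells past several gates kept in each class, so that classes shared cells, the lower calls against stroma became 3, the Gng13 calls became 7 higher and 2 lower, and Wnt9a in PG cells over stroma at P5 stood at 0.49 on the log2 scale, the other side from the value reported. With cells thinned to 2000 UMIs, the calls higher at P5 than E12.5 became 3 and those lower than in epithelium 4, and Rspo1 over epithelium at E16.5 stood at 0.04 on the log2 scale, where 10 epithelial cells were left. The cause was not tested. No other count of calls per library moved by more than 1.5 times under these or the other planned settings, or with E14.5 or E18.5 in place of E16.5, which were added after seeing the data. Over single genes, 855 of 1056 ratios moved by less than their interval, 199 by more and 2 turned sides. Both of these 2 had been called, and ratios not called that crossed 1 are not counted as turned. The settings differed. Of 118 ratios, 51 moved by more with cells past several gates kept and 38 with 1 UMI in each gate but that of Kitl. Thinning moved 44 of 112. The fewest, 2 of 118, moved with haemoglobin and mitochondrial genes left out of the total. No paired analysis was possible for ages because each age is 1 library. In the edgeR fit over the 7 libraries, PG cells against stroma gave 6 higher and 2 lower, against epithelium 1 and 1, and Gng13-positive against Gng13-negative 4 and 0. Without the replicate block, these became 5 and 1, 0 and 1, and 1 and 0. Library size scaling gave 7 and 1 against stroma (Wnt9a gained, Nkd1 lost), where it moved the median of all genes from -0.01 to 0.13 on the log2 scale, and 2 and 1 against epithelium. DESeq2 gave 7 and 2 against stroma and 2 and 3 against epithelium. Without E16.5 the lower call against epithelium became 0. Depth limits Wnt9a, Znrf3 and all classes under 50 cells.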
